A study of Rattus norvegicus with 9 samples.

Results

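The genes described are the cathepsins (Cts and 1 letter), the LAMP proteins, Cd63 and the subunits and accessory proteins of the proton pump, together with Tfeb, chosen by name among the probes of a rat whole-genome array. The rule found 43 genes with 54 probes, out of 35638 genes or unnamed transcripts with 41012 probes. They were 16 cathepsins, 4 membrane proteins, 21 pump subunits and 2 pump accessory proteins, and each gene is given by the probe with the brightest mean. For 37 of the 43 the Cy5 signal was well above background on at least 4 of the 9 arrays. The other 6 were Atp6v0d2, Atp6v1b1, Ctsg, Ctsj, Ctsm and Ctsr, which were not well above background and are not compared here. Ctsg is a serine protease of neutrophils, and Ctsj, Ctsm and Ctsr are rodent cathepsins known from placenta.

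The lysosome is the acidic compartment in which cells break down proteins, lipids and sugars that arrive from outside or from worn-out organelles. A vacuolar proton pump (V-ATPase) acidifies it: the V1 sector in the cytosol splits ATP, and the V0 sector in the membrane carries protons inward. Cathepsins are its proteases, active at acid pH, and the heavily glycosylated LAMP proteins line its membrane. In blood, monocytes are rich in lysosomes, platelets carry lysosomes and related granules, and killer lymphocytes store their lytic proteins in lysosome-like granules.

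The RNA was that of peripheral blood mononuclear cells (PBMC), separated on a Ficoll gradient. They came from 9 Wistar rats, all male and 6 months old, whose blood was drawn in the fed state. The cafeteria group (5 rats, numbered 1, 4, 7, 10 and 13) had fat-rich cafeteria foods beside its chow during 4 months, starting when the rats were 2 months old. The control group (4 rats, numbered 1, 4, 7 and 13) ate chow only. Each array held Cy5-labelled RNA of 1 rat and a Cy3-labelled pool made from the RNA of all groups, in the same dye orientation throughout. Values below are log2 ratios of the rat to the pool, and differences are cafeteria minus control. A level set across genes is not defined on this scale, so each gene is compared only with itself.

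Between 58.8% and 66.7% of the spots of an array gave a Cy5 signal well above background. Over the whole array no probe passed the adjusted threshold of 0.05 in limma (2 did without control rat 1, and 2 without control rat 13), and 1172 of 22072 genes (5.31%) had an unadjusted limma p under 0.05. Markers of other blood cells varied between rats and between the groups. All 10 measured platelet markers (of 15 listed; Gp1ba, Itga2b, Gp6, Tubb1 and Selp were not measured) were lower on average in the cafeteria group, with mean log2 ratios of -0.81 to 0.32 in the cafeteria rats and -0.32 to 1.29 in the controls. The 1.29 was that of control rat 4. Control rats 1, 7 and 13 had platelet marker means of -0.13, -0.32 and 0.20, within the cafeteria range. Of 17 measured monocyte markers 7 were higher and 10 lower on average. Their means ran from -0.49 to 0.40 in the cafeteria rats and from -0.25 to 0.27 in the controls. Of 8 measured neutrophil markers, cells that a Ficoll gradient largely removes, 3 were higher and 5 lower (means -0.33 to 0.18, against -0.24 to 0.26). Of 9 measured erythroid markers 7 were higher, each with an unadjusted limma p under 0.05, and 2 were lower, Rhag (-0.76) and Epor (-0.0099). The erythroid means ran from -0.53 to -0.060 in the cafeteria rats, against -0.76 to -0.54 in the controls. All 14 T cell markers were lower on average (means -0.54 to 0.067, against -0.22 to 0.11) and all 11 B cell markers were higher (means -0.19 to 0.35, against -0.27 to 0.24). None of these markers passed the adjusted threshold. In bulk RNA, fewer cells of a type and less RNA per cell cannot be told apart, and the part of these shifts in the values below was not tested except where values are given.

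The promoters of several members carry the E-box CACGTG that Tfeb, the transcription factor known as the master regulator of lysosomal genes, and its relatives bind, often in the longer form TCACGTGA. Promoter windows of 300 bases (250 before and 50 after the gene start, RefSeq, GRCr8) were found by symbol for 35 of the 43 genes. Both motifs read the same on the 2 strands, and every TCACGTGA holds a CACGTG. TCACGTGA occurred in 4 of the 35, in Lamp1, Ctsd, Atp6v0d1 and Atp6v0e1, and in 0.777% of 33469 windows of all genes. CACGTG occurred in 6, adding Cd63 and Ctsf, and in 6.42% of all windows. The Lamp1 window held 5 copies of CACGTG, which no other window of the table did. Bases before the start are shown for the 3 members with TCACGTGA there and for Cd63, whose values are described in full below. They run 5′ to 3′ on the gene's strand, with CACGTG or TCACGTGA in capitals. Not shown are the copy in Atp6v0e1, which lies after its start, and the single CACGTG of Ctsf. Ctsd held a further CACGTG 157 bases before its start, outside the stretch shown.
Lamp1 (chr16:83075064-83075313, minus strand, the 250 bases before the start): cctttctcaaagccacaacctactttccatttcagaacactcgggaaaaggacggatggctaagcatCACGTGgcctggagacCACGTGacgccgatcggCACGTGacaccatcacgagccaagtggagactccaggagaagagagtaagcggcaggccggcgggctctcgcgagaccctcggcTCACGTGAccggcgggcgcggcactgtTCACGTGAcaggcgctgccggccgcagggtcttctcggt
Ctsd (chr1:206968822-206968862, minus strand, the 41 bases before the start): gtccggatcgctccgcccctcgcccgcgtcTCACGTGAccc
Atp6v0d1 (chr19:50357264-50357331, minus strand, 83 to 16 bases before the start): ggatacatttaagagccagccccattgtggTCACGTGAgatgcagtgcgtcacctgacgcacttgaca
Cd63 (chr7:1921924-1921991, plus strand, 220 to 153 bases before the start): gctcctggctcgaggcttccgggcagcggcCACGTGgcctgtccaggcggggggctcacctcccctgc
In Lamp1 the pair of longer copies begins 66 and 39 bases before the start, in Ctsd 11 bases and in Atp6v0d1 53 bases before it. A match is a description of the letters and shows no binding, and the absence of a match in a window says nothing about the factor.

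No lysosomal gene passed the test between the diets. Of the 37 measured members 22 were higher and 15 lower on average in cafeteria rats (59.5% higher, against 53.1% of all genes). With each array centred on its median 26 of 37 were higher (66.7% of all genes), and with the values of the authors' deposited table they numbered 25 of 31 (77.3% of all genes). The median difference was 0.014 on the log2 scale (-0.013 without control rat 7) against 0.0082 over all genes. No member had an adjusted p under 0.05 in limma (0.0% of all genes did) and none had an unadjusted p under 0.05, against 5.31% of all genes. For no member did the values of the groups stay apart without overlap, against 1.81% of all genes. The differences ran from -0.31 (Ctsw) to 0.24 (Atp6v0b). Without cafeteria rat 1 the unadjusted count was 3 (Atp6v0b, Atp6v1c1 and Ctsd, all higher), and without control rat 4 it was 5 (Atp6v0b, Ctsd and Lamp3 higher, Ctsk and Ctsw lower), with no adjusted p under 0.05 in either. On slide 3 (cafeteria rat 1 and control rat 1) the members' median difference was -0.18, and on slide 5 (cafeteria rat 10 and control rat 13) it was 0.089, so the direction was not shared. With slide as a fixed block, which rests on those pairs, the differences of Ctsw, Cd63, Atp6v0b and Atp6v1c1 were -0.61, -0.14, 0.14 and 0.034.

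**Figure D1:**
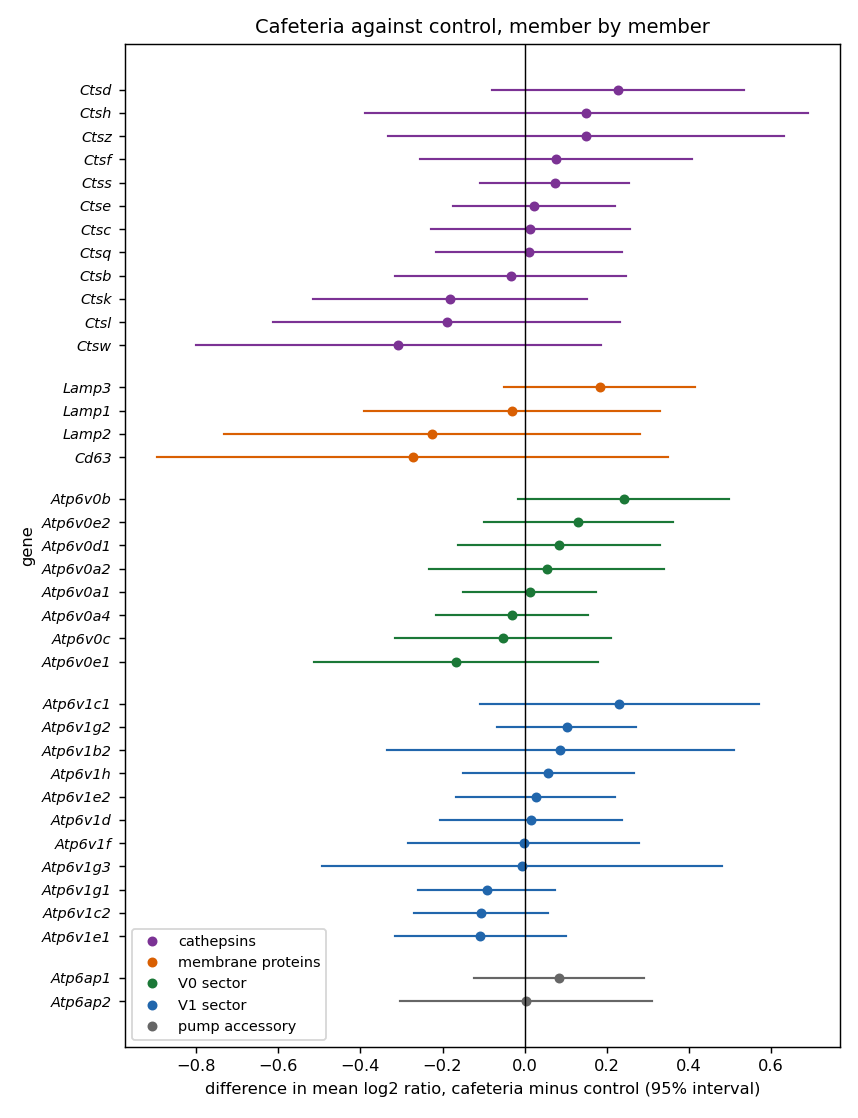
Difference in mean log2 ratio, cafeteria minus control, for each of the 37 measured members (points) with its 95% interval (lines), grouped by class. All intervals include 0, and the widest are those of Cd63, Ctsh and Lamp2.

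The pump's membrane sector held the member furthest up. Atp6v0b, a proteolipid of the rotating ring through which protons pass (probe at chromosome 5, 138349815 to 138350455, rn4), had log2 ratios of -0.57, -0.10, -0.15, -0.066 and -0.17 in cafeteria rats 1, 4, 7, 10 and 13, against -0.45, -0.26, -0.64 and -0.46 in control rats 1, 4, 7 and 13. All cafeteria rats but 1 lay above every control, and cafeteria rat 1 lay below 3 of the 4 controls. Its difference was 0.24 (SE 0.12, limma adjusted p = 0.910), and 0.33 without that rat. Atp6v0c, the main proteolipid of the same ring, had -0.51, -0.13, -0.33, -0.097 and -0.25 in the cafeteria rats, against -0.14, 0.050, -0.48 and -0.27 in the controls. Its groups overlapped over most of their range, and the difference was -0.052 (SE 0.12, limma adjusted p = 0.989), with the sign turned in 4 other settings. The other 6 measured V0 genes ran from -0.17 (Atp6v0e1, a small membrane subunit) to 0.13 (Atp6v0e2, its paralogue), with Atp6v0d1, which couples the sectors, at 0.084. By the brightest probe the a subunits, which form the proton half-channels, stood at 0.013 for Atp6v0a1, 0.054 for Atp6v0a2 and -0.030 for Atp6v0a4, an isoform known from kidney. A second Atp6v0a1 probe gave a larger difference of 0.18 (SE 0.081, limma adjusted p = 0.874), and a second Atp6v0a2 probe gave 0.14. Of the 8 measured V0 genes 5 were higher and 3 lower.

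In the cytosolic sector 6 of 11 measured genes were higher and 5 lower, with a median of 0.015. Atp6v1c1, the C subunit that joins V1 to V0 when the pump assembles (chromosome 7, 74362223 to 74362282), had -0.39, 0.079, -0.015, 0.31 and 0.15 in the cafeteria rats, against -0.11, -0.080, -0.59 and -0.036 in the controls. Control rat 7 and cafeteria rat 1 were the lowest, and every other control lay within the cafeteria range. Its difference was 0.23 (SE 0.15, limma adjusted p = 0.978), and 0.10 without control rat 7. Atp6v1b2, the B subunit of the head that binds ATP, was lower in control rat 7 (-0.90) and cafeteria rat 1 (-0.68) than in the other 7 rats (-0.35 to 0.034). Its difference was 0.087 with an interval of -0.34 to 0.51, and a second Atp6v1b2 probe gave 0.15. The rest ran from -0.11 (Atp6v1e1, a peripheral stalk subunit) to 0.10 (Atp6v1g2, also of the stalk). Atp6v1g3, a stalk isoform known from kidney, was above background on all 9 arrays and varied widely between rats (-0.23 to 0.65, against -0.20 to 0.46). No probe was named Atp6v1a. A pair of probes for LOC685232, described in the files as similar to the V1 subunit A, differed by 0.050 and 0.060. Tcirg1, which encodes the a3 subunit but falls outside the name rule, differed by 0.031.

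Both accessory proteins of the pump had small mean differences. Atp6ap1, needed for pump assembly, had -0.15, -0.22, 0.14, -0.18 and 0.011 in the cafeteria rats, against -0.25, -0.092, -0.043 and -0.27 in the controls, a difference of 0.083 (SE 0.093, limma adjusted p = 0.983). Atp6ap2, also known as the prorenin receptor, had -0.28, 0.26, -0.13, 0.21 and 0.24 in the cafeteria rats, against 0.20, 0.27, -0.15 and -0.095 in the controls, a difference of 0.0035 (SE 0.14, limma adjusted p = 0.998). In Atp6ap2 the low rats were cafeteria 1 and 7 and control 7 and 13, and the sign of the difference turned in 8 other settings. Further Atp6ap2 probes gave 0.080 and 0.060.

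Among the cathepsins 8 of 12 measured genes were higher and 4 lower, with a median of 0.018. Ctsd, the main aspartic protease of lysosomes (chromosome 1, 202619669 to 202619727), had -0.38, -0.27, 0.063, 0.094 and 0.20 in the cafeteria rats, against -0.35, 0.0059, -0.42 and -0.38 in the controls. Cafeteria rats 7, 10 and 13 lay above every control, while control rat 4 stood apart from the other controls. The difference was 0.23 (SE 0.14, limma adjusted p = 0.978), and 0.32 without control rat 4 and 0.16 without cafeteria rat 13. Ctsb, an abundant cysteine protease, had 0.030, 0.54, 0.10, 0.34 and 0.14 in the cafeteria rats, against 0.35, 0.45, 0.28 and -0.031 in the controls, a difference of -0.034 (SE 0.13, limma adjusted p = 0.994) whose sign turned in 9 other settings. Ctss, which trims the invariant chain of MHC class II in antigen-presenting cells, had -0.036, 0.13, 0.052, 0.20 and 0.037 in the cafeteria rats, against 0.053, 0.16, -0.048 and -0.15 in the controls, a difference of 0.073 (SE 0.082, limma adjusted p = 0.983). By this probe its values spread little (SD 0.11), and those of the groups overlapped. A second Ctss probe spread more (SD 0.17) and gave 0.13.

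Ctsl, a cysteine protease of broad expression, had -0.057, 0.30, -0.59, -0.037 and -0.45 in the cafeteria rats, against 0.015, -0.21, 0.44 and -0.16 in the controls. Cafeteria rats 7 and 13 were low and control rat 7 was high, and the difference was -0.19 (SE 0.19, limma adjusted p = 0.983). A second Ctsl probe gave -0.046. Ctsh and Ctsz, an aminopeptidase and a carboxypeptidase, varied widely between rats: Ctsh from -0.45 to 0.65 in cafeteria rats and from -0.46 to 0.57 in controls, and Ctsz from -0.80 to 0.13 and from -0.76 to 0.088. Their mean differences were 0.15 and 0.15, with intervals of -0.39 to 0.69 and -0.33 to 0.63. Ctsa, the carboxypeptidase also called protective protein, is listed in the files as Ppgb and so lies outside the name rule. Its brightest probe had -0.26, -0.23, -0.083, 0.10 and -0.15 in the cafeteria rats, against -0.20, -0.050, -0.27 and -0.32 in the controls, a difference of 0.084 (SE 0.093, limma adjusted p = 0.983), and the other probes gave 0.029 and 0.020. The other measured cathepsins (Ctsc, Ctse, Ctsf, Ctsk and Ctsq) ran from -0.18 (Ctsk, known from bone-resorbing osteoclasts) to 0.076 (Ctsf).

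Ctsw, a cathepsin known from cytotoxic T and natural killer cells (chromosome 1, 208109108 to 208109241), was the member furthest down. Its log2 ratios were -0.055, -0.50, -0.44, -0.25 and -0.34 in the cafeteria rats, against 0.57, -0.63, -0.33 and 0.35 in the controls. The controls split into a high pair (1 and 13) and a low pair (4 and 7), and all 5 cafeteria rats lay below the high pair and above control rat 4. The difference was -0.31 (SE 0.22, limma adjusted p = 0.978). It was -0.51 without control rat 4, and -0.11 and -0.19 without control rats 1 and 13. Slides 3 and 5 each held 1 rat of both groups, and there the differences were -0.63 and -0.60. The controls on these slides were rats 1 and 13, the high pair, so these differences leave out the low pair. The mean of 13 other markers of cytotoxic cells was -0.13, -0.22, 0.41, -0.096 and 0.10 in the cafeteria rats, against -0.055, -0.39, -0.24 and -0.087 in the controls, highest in cafeteria rat 7, whose Ctsw value was -0.44. Of the 14 cytotoxic markers measured, Ctsw among them, 10 were higher and 4 lower on average in cafeteria rats. The 4 lower were Ctsw, Cd8b (-0.33), Klrk1 (-0.024) and Cd8a (-0.012), so the mean joins markers that differed in direction. Cd8b had 0.36, -0.28, -0.57, -0.72 and -0.43 in the cafeteria rats, against 0.31, -0.29, -0.071 and 0.060 in the controls.

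**Figure D2:**
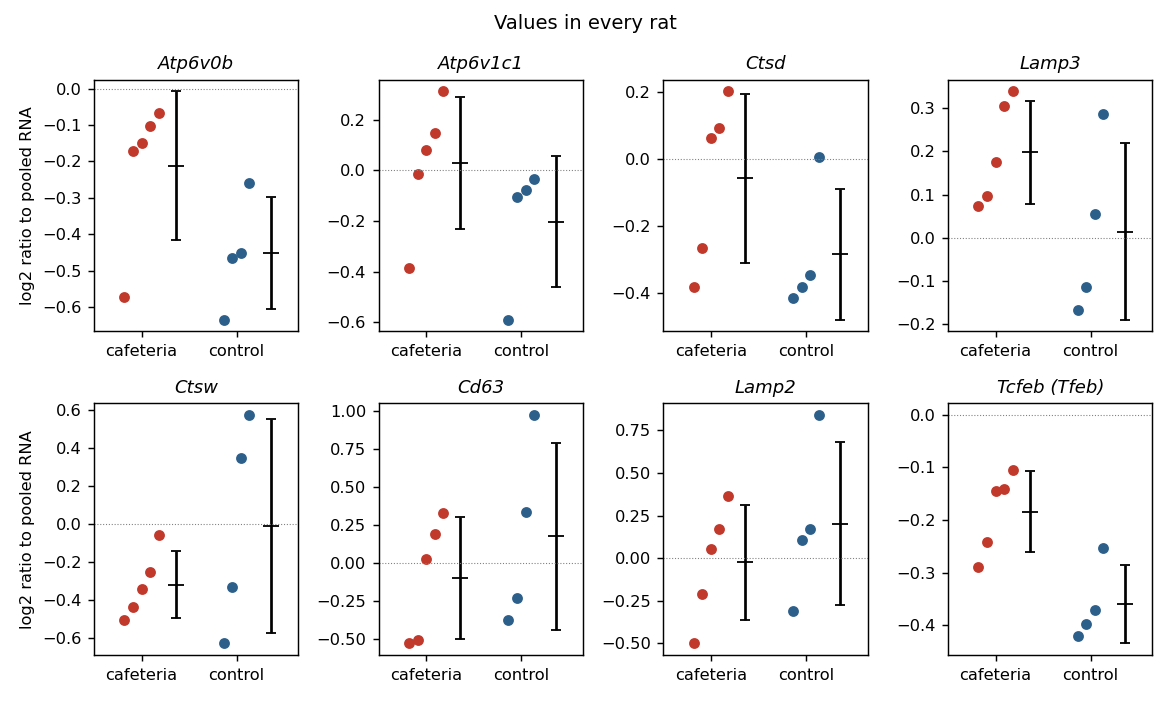
Log2 ratio to the pool in every rat for 8 genes, cafeteria on the left and control on the right of each panel, with mean and SD beside the points (n = 5 and 4). Atp6v0b has 1 low cafeteria rat, Cd63 and Lamp2 have 1 high control rat, and the groups overlap in every panel.

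Of the 4 membrane proteins measured 3 were lower and 1 was higher, and the 2 lowest rested on 1 control. Cd63, a tetraspanin of late endosomes and of platelet dense granules (chromosome 7, 2210440 to 2210499), had -0.51, 0.027, -0.53, 0.33 and 0.19 in the cafeteria rats, against -0.23, 0.97, -0.37 and 0.33 in the controls. Lamp2, the membrane protein that also serves chaperone-mediated autophagy (chromosome X, 6931712 to 6938320), had -0.50, 0.053, -0.21, 0.36 and 0.17 in the cafeteria rats, against 0.11, 0.84, -0.31 and 0.17 in the controls. In both, control rat 4 was the highest of all 9 by a wide margin. The other 3 controls lay within the cafeteria range for Lamp2, and for Cd63 control rat 13 lay just above it. The differences were -0.27 (SE 0.28, limma adjusted p = 0.983) and -0.23 (SE 0.23, limma adjusted p = 0.983), and -0.0071 and -0.014 without control rat 4. Without control rat 7 they were -0.46 and -0.40. Lamp1, the most abundant lysosomal membrane glycoprotein in many cells (chromosome 16, 81214430 to 81214489), had -0.41, 0.084, -0.26, 0.15 and -0.29 in the cafeteria rats, against -0.022, 0.21, -0.54 and -0.10 in the controls, a difference of -0.030 (SE 0.16, limma adjusted p = 0.997) whose sign turned in 7 other settings. Lamp3, known in human as a marker of mature dendritic cells and named here after its values were seen, had 0.096, 0.30, 0.17, 0.074 and 0.34 in the cafeteria rats, against -0.17, 0.29, 0.055 and -0.11 in the controls. Its difference was 0.18 (SE 0.10, limma adjusted p = 0.964), and 2 further probes gave 0.19 and 0.16. Of 10 dendritic cell markers listed 4 were measured, 2 higher and 2 lower on average, with a mean difference of 0.0076. The part of such cells in the Lamp3 values was not tested. Over the 9 further probes of members above background, all had the sign of the brightest probe and none had an unadjusted p under 0.05.

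The regulator Tfeb had no probe of that name: 2 probes named Tcfeb matched it by accession. The brighter one (chromosome 9, 8665358 to 8665417) had -0.29, -0.24, -0.14, -0.14 and -0.10 in the cafeteria rats, against -0.40, -0.25, -0.37 and -0.42 in the controls. All 9 values lay below the pool, 3 of the 4 controls lay below every cafeteria rat, and control rat 4 lay above cafeteria rat 1 alone. The difference was 0.18 (SE 0.070, limma adjusted p = 0.794), so it did not pass the adjusted threshold. The second probe gave 0.16 (SE 0.10, limma adjusted p = 0.978). Under the other settings the difference of the brighter probe ran from 0.14 (Cy5 alone) to 0.36 (the authors' deposited values). Cafeteria rats were higher in each, and no adjusted p was under 0.05. In the authors' values 77.3% of all genes were higher too, and with those values centred the difference was 0.24.

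Members varied between rats within both groups. Over all 9 arrays 24 of the 37 members had an SD above the median of all genes (0.15). The highest SDs were those of Cd63 (0.49), Ctsh (0.41), Ctsw (0.40), Lamp2 (0.40), Ctsz (0.37) and Atp6v1g3 (0.36). The lowest was that of Atp6v0a1 (0.081). Cafeteria rat 1 held the lowest value of 7 members and control rat 7 that of 11, out of 37, while these arrays held the lowest value of 3087 and 4337 of 25720 probes. Cafeteria rats 4 and 10 held the highest value of 6 members each (and of 2563 and 2461 of the 25720 probes), control rat 1 that of 6 (and of 3179 probes) and control rat 4 that of 7 (and of 3594 probes). Control rat 4 also held the lowest value of 6 members and of 2804 probes.

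**Figure D3:**
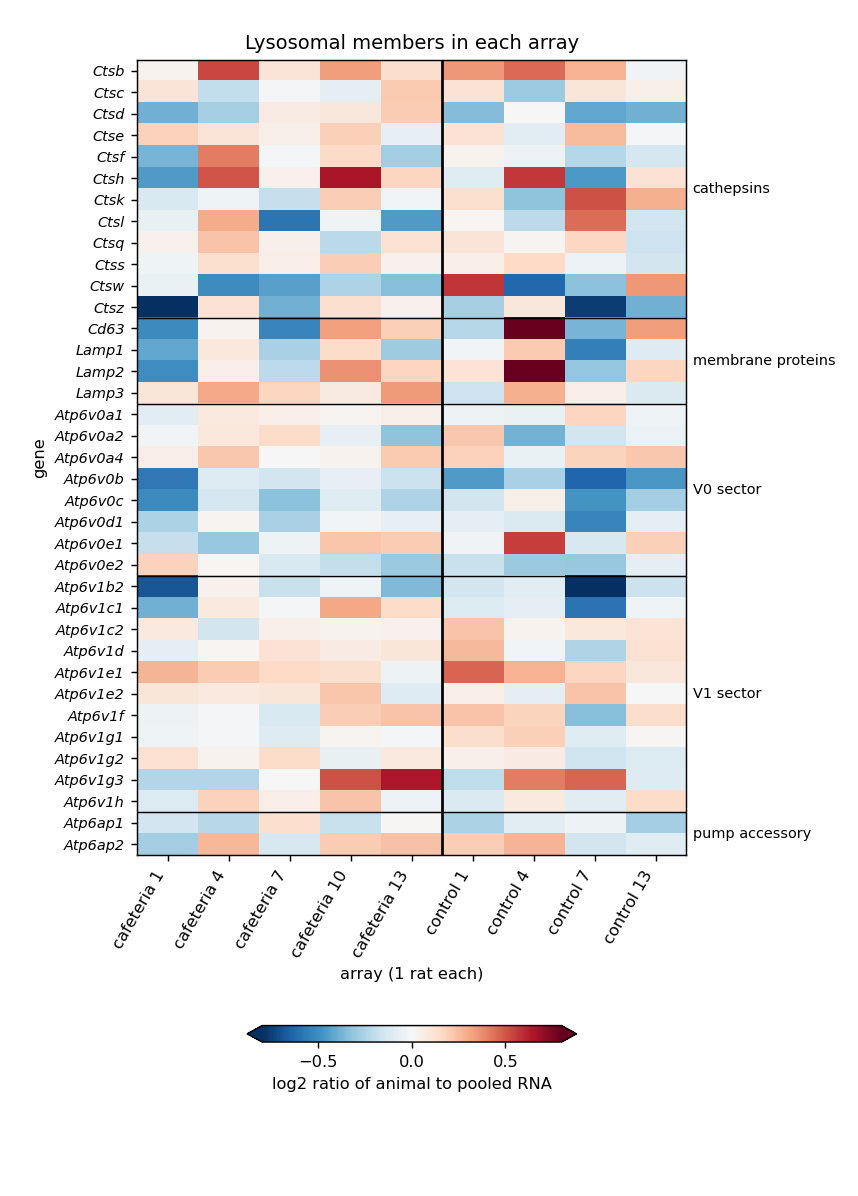
Log2 ratio to the pool (colour, from blue for low to red for high, with values past 0.8 at the end colours) for the 37 members (rows, by class) in the 5 cafeteria (left) and 4 control arrays (right). Cafeteria 1 and control 7 are blue for Ctsh, Ctsz, Lamp1, Lamp2 and Atp6v1b2, and control 4 is dark red for Cd63 and Lamp2.

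Levels of the members were set against cell type markers of the same rat. Against the mean of 10 platelet markers (among them Pf4 and Gp9), Cd63 gave Pearson r = 0.97 (exact permutation p = 3.86e-05, adjusted p = 0.0126) and Spearman rho = 0.93 (exact permutation p = 0.00075). Lamp2 gave Pearson r = 0.94 (exact permutation p = 0.000513, adjusted p = 0.0304) and Spearman rho = 0.95 (exact permutation p = 0.000353). These 2 passed the adjusted threshold (with median-centred arrays Lamp2 had r = 0.89 and did not), against 2.3% of 25707 probes, and 9 of 37 members had an unadjusted exact permutation p under 0.05, against 11.2%. Of these 9 the correlation was positive for 8 and negative for Atp6v0a2 (r = -0.71), a subunit of the proton channel. Without control rat 4 and cafeteria rat 7, which lay farthest from the median of the platelet marker mean, r was 0.95 for Cd63 and 0.94 for Lamp2. Without them 4 members had an unadjusted p under 0.05, namely Cd63, Lamp2, Atp6v0e1 and Atp6v1c1, the last of which was not among the 9. Control rat 4 had the highest platelet marker mean (1.29) as well as the highest Cd63 and Lamp2 values. Atp6v0e1 had r = 0.86 and an adjusted p of 0.114. This comparison was added after the values were seen.

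Against the mean of 17 monocyte markers (among them Cd14 and Csf1r; Cd68, itself a lysosomal protein, was left out), 12 of 37 members had an unadjusted exact permutation p under 0.05, against 12.9% of 25700 probes, and none had an adjusted p under 0.05, as for 0.0% of probes. The highest were Atp6ap2, with Pearson r = 0.89 (exact permutation p = 0.00296, adjusted p = 0.224) and Spearman rho = 0.92 (exact permutation p = 0.00131), Atp6v0c, with Pearson r = 0.87 (exact permutation p = 0.00239, adjusted p = 0.220) and Spearman rho = 0.93 (exact permutation p = 0.00075), and Lamp1, with Pearson r = 0.86 (exact permutation p = 0.00462, adjusted p = 0.247) and Spearman rho = 0.83 (exact permutation p = 0.00827). Without cafeteria rat 4 and control rat 4, farthest from the median of the monocyte marker mean, r was 0.85, 0.88 and 0.81. Then 4 members kept an unadjusted p under 0.05, namely Atp6ap2, Atp6v0c, Lamp1 and Lamp2 (r = 0.88). Among the cathepsins Ctsb, Ctsz, Ctsh and Ctsf had r of 0.83, 0.83, 0.80 and 0.77, and without those 2 rats 0.67, 0.75, 0.69 and 0.70, none with an unadjusted p under 0.05. Ctsd had r = 0.17 (0.22 without them) and Ctsc r = -0.63 (-0.21 without them). Several named members correlated with both marker means. Against monocyte markers Lamp2 and Cd63 had r = 0.75 and 0.68, while Atp6v0e1 had 0.29. Against platelet markers Atp6v0c, Lamp1 and Atp6ap2 had r = 0.78, 0.67 and 0.66. All of these but Atp6v0e1 had an unadjusted exact permutation p under 0.05, and none had an adjusted p under 0.05. The marker means share their arrays with the members and with each other, and 2 slides held 2 arrays each, too few for a value within a slide.

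**Figure D4:**
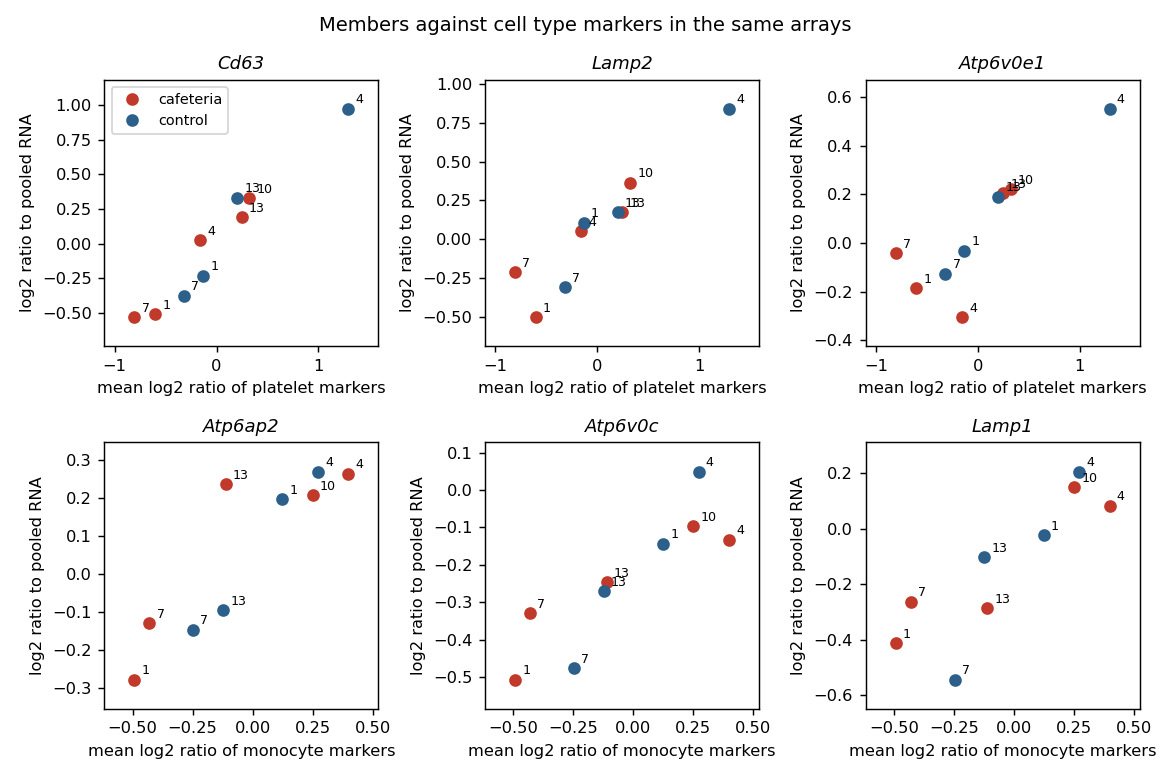
Log2 ratio of 6 members (vertical axes) against the mean log2 ratio of platelet markers (top row) or monocyte markers (bottom row) in the same array (horizontal axes), cafeteria in red and control in blue, with rat numbers. Control 4 lies at the right end of the top row, and cafeteria 1 at the left end of the bottom row.

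The rest of the lysosome was read from a list of 90 other genes (hydrolases, transporters, sorting factors, cathepsin inhibitors and nutrient sensors), of which 78 were measured. There 49 were higher and 29 lower, with a median difference of 0.038, and 10 (5 in each direction) had an unadjusted limma p under 0.05, against 5.31% of all genes. None had an adjusted p under 0.05. Without control rat 7 the count was 5 and the median -0.013; without cafeteria rat 7 or 10, or control rat 1, the count was 6 each. Ap3d1, a subunit of the AP-3 adaptor that sends membrane proteins to lysosomes, had -0.0083, -0.24, 0.038, -0.62 and -0.067 in the cafeteria rats, against 0.74, 0.69, 0.32 and 0.040 in the controls, a difference of -0.63 (SE 0.17, limma adjusted p = 0.541). Cln3, a lysosomal membrane protein mutated in Batten disease, had 0.022, 0.021, 0.28, 0.14 and -0.0087 in the cafeteria rats, against -0.13, -0.10, -0.20 and -0.16 in the controls, a difference of 0.24 (SE 0.076, limma adjusted p = 0.596). In these 2 of the 78 genes the groups did not overlap, near the 1.81% of all genes, and for Ap3d1 cafeteria rat 7 and control rat 13 nearly met. Rragd, a Rag GTPase of the lysosomal surface in the nutrient-sensing pathway, had -0.15, 0.19, 0.42, 0.19 and 0.31 in the cafeteria rats, against -0.25, -0.083, -0.14 and -0.18 in the controls, a difference of 0.36 (SE 0.11, limma adjusted p = 0.576); 4 of the 5 cafeteria rats lay above every control.

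Of 7 cathepsin inhibitors measured 3 were higher and 4 lower on average, from -0.52 (Cst3, cystatin C, a secreted inhibitor; SE 0.34) to 0.27 (Cst7), and none passed the adjusted threshold. For Cst3 control rat 4 had 1.36, while control rats 1, 7 and 13 had -0.17, -0.33 and 0.26 and the cafeteria rats -0.89 to 0.23. Csta, a cystatin of the cytosol, differed by -0.30 (SE 0.10, limma adjusted p = 0.632) and Cst7, a cystatin of the endolysosome in cytotoxic and myeloid cells, by 0.27 (SE 0.11, limma adjusted p = 0.834). Lower on average were also Acp2 (-0.50), a lysosomal acid phosphatase, Gm2a (-0.37), an activator of ganglioside breakdown, and Ppt1 (-0.33), which removes fatty acids from proteins. Higher on average were Man2b1 (0.28), a mannosidase, and Gga1 (0.22), a sorting adaptor. The adjusted p of these 7 genes lay between 0.632 and 0.849.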

How the data were processed

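Intensities of both dyes (spot means and local background medians) were deposited by the authors as scanner output of Feature Extraction 9.5.1.1, per the file headers, with coordinates on rn4. The software's log10 ratio in the same files, after its own dye normalization, and a table deposited by the authors on a log2 scale served as alternatives. The values of that table followed the Cy5 level (rank correlation 0.993 to 0.999, medians 9.40 to 9.69), so how the reference entered it is unknown.

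On several arrays a few spots had local backgrounds of up to 65389. With these, the median absolute deviation of dim probes' log2 ratios was 0.0090 to 0.16 by array, against 0.13 to 0.16 without. For spots whose background the software marked as an outlier (3.4% to 5.6% per array) the array's median background was used, a step chosen after the values were seen. Then came normexp (offset 50), loess within arrays, averaging of repeated spots, and a filter of Cy5 well above background on at least 4 arrays (25805 of 41012 probes). Groups were compared with limma 3.58.1 (statmod 1.5.0, R 4.3.3), with 7 degrees of freedom among arrays and 3.41 from the prior. P-values were adjusted over all kept probes by Benjamini and Hochberg's method. Correlations used two-sided exact permutation over all orders of the 9 arrays, adjusted over all probes rather than over the members as first planned (Python 3.11.15, numpy 2.4.6, pandas 2.3.3, matplotlib 3.10.9). The methods were tested on simulated data. Names were updated through RefSeq by accession, symbol or synonym (19625 probes).

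The members and lists were chosen with earlier results of these data known. Values in every array are given for members with an unadjusted p under 0.05, the 3 furthest in each direction and a fixed set of 14 names. Other lysosomal genes are named where the unadjusted p was under 0.05. Cst3, the lowest of the inhibitors, and Tcirg1 are named beside these. Each array is 1 rat, and the number of arrays limits the precision. Equal replicate numbers did not pair the rats (correlations of deviations -0.18 to 0.13).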

Additional observations from a re-analysis of the deposited data

Results flagged for a closer look

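In 3 cases a value stood apart from the rest of its group, out of 42 groups of 4 or 5 rats examined for 21 genes and sets; chance flags about 1 in 20 groups. For Atp6v0b, cafeteria rat 1 had a log2 ratio of -0.57, while the other cafeteria rats lay between -0.17 and -0.066. For Atp6v1c1, control rat 7 had -0.59, while the other controls lay between -0.11 and -0.036. For Ctsd, control rat 4 had 0.0059, while the other controls lay between -0.42 and -0.35. Cafeteria rat 1 had the lowest monocyte marker mean of the 9 (-0.49) and control rat 4 the highest platelet marker mean (1.29), and the part of either in these values was not tested.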

How the results depend on the processing

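In no setting did a member or another lysosomal gene have an adjusted p under 0.05. Over all probes the adjusted count of 0 became 2 with the local backgrounds as deposited, and ran from 0 to 2 when 1 array was left out. The number of members with an unadjusted p under 0.05, 0 as reported, was 2 for the scanner's own log ratio, 3 after median centring, 4 for the authors' table, 1 with those values centred, 2 with backgrounds as deposited, 1 with slide as a fixed block, 3 with array weights, and 0 to 5 without 1 array. With the replicate block it was 1, and same-numbered rats showed no shared deviation. The members' median of 0.014 became 0.11 after median centring and 0.15 in the authors' table, where the median of all genes stood at 0.072 and 0.13. Members higher on average then numbered 26 of 37 and 25 of 31, against 22 of 37, and 66.7% and 77.3% of all genes were higher; with slide as a fixed block 16 of 37 were. For the other lysosomal genes the median of 0.038 became 0.14 and 0.18, and the unadjusted count of 10 was 6 with the scanner's log ratio, 2 with slide as a fixed block and 5 to 10 without 1 array. The medians without 1 array ran from -0.013 to 0.040 for members and from -0.013 to 0.068 for the others. Differences of Ctsb, Lamp1, Atp6ap2 and Atp6v0c, all within 0.052 of 0 as reported, changed sign in 9, 7, 8 and 4 settings, Ctsl and Lamp2 in 1 each, with no test passed. With median centring the members passing the adjusted threshold against platelet markers were 1 instead of 2, since Lamp2 had r = 0.89. The cause of these shifts was not tested. Slide means removed from the correlations were not run, because only 2 slides held 2 arrays. Precision is limited by 5 and 4 arrays, and the intervals given show the uncertainty of the differences. Small differences could have been missed, and so could larger ones in members that varied widely between rats. The interval of Cd63 ran from -0.90 to 0.35, and that of Ctsw from -0.80 to 0.19.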
